A study of Mus musculus with 4 samples.

Results

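The 10 genes described here are circadian clock genes of the mouse, followed across the cell classes of the pituitary gland. They are the transcription factors Clock and Arntl (also called Bmal1), the repressors Per1, Per2, Per3, Cry1 and Cry2, the nuclear receptors Nr1d1 and Nr1d2, and the output factor Dbp. They were chosen by symbol, and all 10 were found among the 32285 genes of the files. The choice was made with earlier results of these data known. The study sequenced RNA of single nuclei from snap-frozen pituitaries of UM-HET3 mice, wild-type animals of a genetically mixed stock. It holds 4 libraries, 1 for each sex at each of 2 ages: by their labels, males of 5 months, females of 5 months, males of 22 months and females of 22 months. Every library was a pool of 3 glands. No group has a second library, so a library differs from another in its mice, its preparation and its label at once. The time of day at which the glands were collected is given by none of the sources used here, and it cannot be told apart from the labels. Where 4 values follow each other below, they stand in the order 5-month males, 5-month females, 22-month males, 22-month females, as labelled.

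The clock is a feedback loop of transcription that runs in nearly every cell with a period of about a day. Clock and Arntl proteins pair and switch on genes that carry an E-box, among them the Per, Cry, Nr1d and Dbp genes. Per and Cry proteins then return to the nucleus and silence the pair. Nr1d1 and Nr1d2, the Rev-erb receptors, repress Arntl, so Arntl transcripts peak at about the opposite time of day from the Per, Nr1d and Dbp transcripts. Dbp carries the rhythm to further genes by binding D-boxes. Per1 and Per2 also respond within minutes to cyclic AMP, calcium and glucocorticoids. In the anterior pituitary, clock genes cycle in several hormone cells, and the secretion of corticotropin, growth hormone, prolactin and the gonadotropins varies over the day.

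These binding letters can be read in the stretches just upstream of the members' starts. RefSeq promoters of 300 bases, from 250 before a start to 50 after it (build GRCm38.p6), were found for 9 of the 10 members, with no entry for Per2. Both strands were searched for the E-box CACGTG, the D-box TTATGTAA, the nuclear receptor half-site AGGTCA and the cyclic AMP response element TGACGTCA. The half-site is called the nuclear receptor site below. The 3 genes with an E-box or a D-box are shown, 250 bases each up to the base before the start, 5′ to 3′ on the gene's strand, with every match to one of these motifs in capitals.

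Per3, chr4:151044666-151044915 (minus strand): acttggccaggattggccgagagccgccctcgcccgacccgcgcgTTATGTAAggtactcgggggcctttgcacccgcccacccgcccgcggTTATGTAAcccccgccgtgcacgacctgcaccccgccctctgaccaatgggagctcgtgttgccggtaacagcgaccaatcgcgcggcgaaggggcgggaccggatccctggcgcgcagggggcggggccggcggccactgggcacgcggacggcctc

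Per1, chr11:69098699-69098948 (plus strand): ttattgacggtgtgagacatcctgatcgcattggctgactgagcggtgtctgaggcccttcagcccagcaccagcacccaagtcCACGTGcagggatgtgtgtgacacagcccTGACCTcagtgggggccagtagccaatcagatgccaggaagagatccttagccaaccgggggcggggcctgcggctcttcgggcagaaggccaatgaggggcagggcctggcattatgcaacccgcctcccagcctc

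Cry1, chr10:85185055-85185304 (minus strand): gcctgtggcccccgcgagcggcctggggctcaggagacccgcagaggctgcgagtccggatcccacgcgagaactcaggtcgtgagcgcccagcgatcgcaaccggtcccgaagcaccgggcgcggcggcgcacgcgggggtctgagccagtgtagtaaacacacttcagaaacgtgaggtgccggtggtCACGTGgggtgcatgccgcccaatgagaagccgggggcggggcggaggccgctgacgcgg

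Per3 held 2 D-boxes and no E-box, starting at bases 46 and 93 of the stretch. Of the 32851 promoters in the table, 0.938% held a D-box and 7 promoters held at least 2. Per1 held 1 E-box at base 85 and a nuclear receptor site, on the other strand, at base 114, and Cry1 held 1 E-box at base 191. An E-box stood in 7.15% of the promoters of the table and a nuclear receptor site in 16.3%. Arntl, Nr1d2 and Clock held a nuclear receptor site in at least 1 of their windows, and the windows of Dbp, Nr1d1 and Cry2 held none of these motifs. A match in such a window is a match of letters, and bound or unbound sites were not measured.

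The 4 libraries held 33328821 to 65773807 counts of unique transcripts (UMIs), and 31475 nuclei were kept, with medians of 3462 to 4746 UMIs. Pairs of libraries shared 14 to 43 barcodes. Xist, the RNA of the inactive X chromosome, stood at 0.298, 0.931, 2470.1 and 1739 CPM (a gene's UMIs scaled to a common total) and 4 Y-linked genes together at 649.7, 647 and then 0.463 and 0.586 CPM. The library labelled 5-month females and the library labelled 22-month males therefore go against their sex labels, and labelled age runs along with sex-chromosome content: the 5-month libraries carry the Y-linked transcripts and the 22-month libraries carry Xist. Labelled age, sex-chromosome content and collection time cannot be told apart in these libraries. Had the libraries labelled 5-month females and 22-month males been exchanged, the labelled-age comparison would be one of sex. The labelled-sex comparison would then be one of age. Whether they were exchanged was not tested. Clustering without the clock genes gave 20 clusters. By markers, 19 of them fell into 11 classes, each named "-like" because it rests on transcripts, and 1 cluster of mixed markers (28 to 337 nuclei a library) stayed unnamed and out of the classes. Gh, the growth hormone gene, and Prl, the prolactin gene, were counted in every class, so values below, low ones above all, can hold free RNA. Gh stood at 61400 CPM in macrophage-like against 165700 CPM in somatotrope-like nuclei. Prl stood at 42580 CPM in stem-like against 61320 CPM in lactotrope-like nuclei. The part of free RNA in the class differences was not tested. Each value is the sum of a gene's UMIs over a class's nuclei in 1 library, as CPM of that sum. The sums ranged from 89758 UMIs (endothelial-like nuclei of the 5-month males, where 1 UMI is 11.1 CPM) to 24271790 UMIs (lactotrope-like nuclei of the 22-month males). Over all kept nuclei the members had from 1769 UMIs (Per2) to 22427 UMIs (Per3).

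Every member differed between cell classes. Each class was compared with the mean of the other classes in 1 edgeR quasi-likelihood fit with library as a block, and a gene passed at a Benjamini-Hochberg adjusted p under 0.05 over all genes. Of 110 pairs of a member and a class, 55 passed, 28 higher and 27 lower, and 35 of these also passed when any 1 library was left out. Over all genes, 33.4% of pairs passed in this comparison, 20.3% higher and 13.1% lower, since classes differ in many genes. Neighbouring classes in the order of a gene's level mostly overlapped: the ranges over the 4 libraries overlapped in all 10 neighbouring pairs for 9 members, and in 8 of 10 for Clock. The plot of levels by class shows the value of every library.

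**Figure D1:**
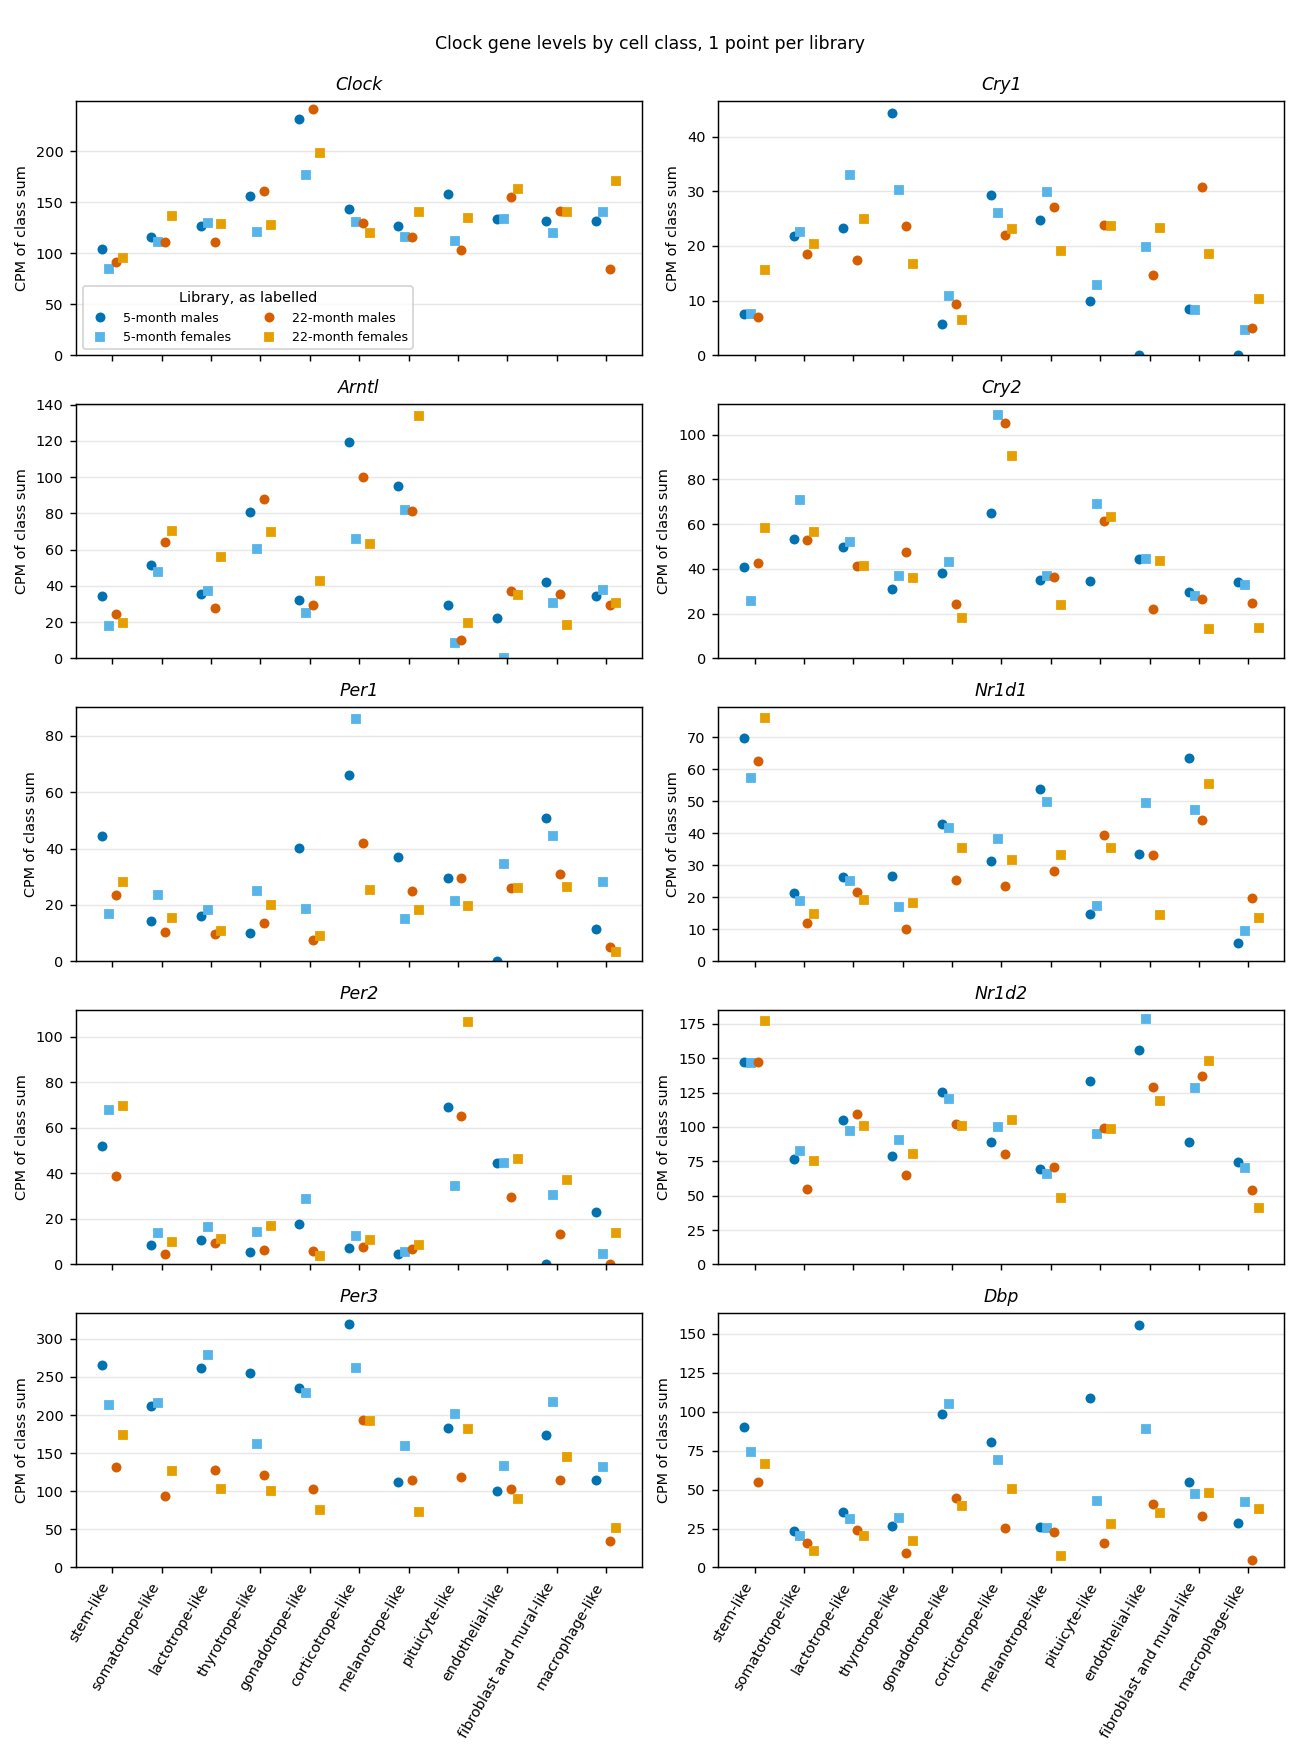
Level of each of the 10 clock genes (CPM of the class sum, linear axis from 0, a separate scale for each gene) in 11 cell classes. Each point is 1 library, blue for the libraries labelled 5-month and orange for those labelled 22-month, circles for males and squares for females as labelled; Per3 points of the 22-month libraries lie below both 5-month points in 9 of 11 classes.

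Of the activating pair, Clock was the most even member, with a ratio of 2.26 between the classes of highest and lowest mean. It was highest in gonadotrope-like nuclei, the cells of LH and FSH, at 231, 177, 241 and 199 CPM. All 4 of these values lay above every value of every other class, and the fold against the other classes was 0.63 ± 0.09 on the log2 scale (SE, edgeR adjusted p = 1.63e-07). Stem-like nuclei were lowest, at 104, 84.6, 91.3 and 95.8 CPM (log2 fold -0.50 ± 0.10, adjusted p = 0.000109). The other 9 classes did not pass for Clock.

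Arntl, the partner of Clock, varied more between classes, with a ratio of 5.77 between its highest and lowest class mean. In melanotrope-like nuclei, the Pomc cells of the intermediate lobe, it stood at 95.3, 81.7, 81.3 and 134 CPM (log2 fold 1.42 ± 0.15, adjusted p = 8.90e-10). In corticotrope-like nuclei, the Pomc cells of the anterior lobe, the values were 119.5, 65.96, 100.3 and 63.2 CPM (log2 fold 1.26 ± 0.18, adjusted p = 5.07e-07). Thyrotrope-like nuclei followed at 80.9, 60.4, 88.2 and 69.5 CPM (adjusted p = 1.85e-05). Somatotrope-like nuclei had a log2 fold of 0.72 ± 0.15 (adjusted p = 0.000158), so both Pomc classes and 2 other hormone classes were higher. Lactotrope-like and gonadotrope-like nuclei did not pass, with means of 39.03 ± 11.9 and 32.4 ± 7.38 CPM (SD, n = 4). Arntl was lower in stem-like nuclei, at 34.3, 18.1, 24.5 and 19.8 CPM, and in pituicyte-like nuclei, the glia of the posterior lobe, at 29.7, 8.60, 9.89 and 19.7 CPM. Their log2 folds were -0.77 ± 0.22 (adjusted p = 0.00515) and -1.59 ± 0.36 (adjusted p = 0.000709), the latter from 18 UMIs in all.

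Per2, a repressor that also answers acute signals, had the widest range of the members, with a ratio of 10.9 between its highest and lowest class mean. Its 3 highest classes were pituicyte-like, stem-like and endothelial-like nuclei. Pituicyte-like nuclei held 69.3, 34.4, 65.3 and 106 CPM (log2 fold 2.24 ± 0.31, adjusted p = 2.03e-07). Stem-like nuclei held 52.1, 67.99, 38.8 and 69.8 CPM (log2 fold 1.95 ± 0.23, adjusted p = 3.95e-09). Endothelial-like nuclei also passed, at 1.30 ± 0.40 (adjusted p = 0.00891), and passed in 3 of the 4 fits with a library left out. The lowest value among stem-like, pituicyte-like and endothelial-like nuclei was 29.5 CPM, in the endothelial-like nuclei of the 22-month males. It came from 8 UMIs (counting interval 12.7 to 58.2 CPM). The highest among the 6 hormone classes was 28.7 CPM, in the gonadotrope-like nuclei of the 5-month females (counting interval 20.5 to 39.1 CPM). The values of these groups of classes thus did not overlap, but the intervals did. The groups were formed from the values themselves, and the share of all genes that separate in this way is not given. The 2 remaining classes overlapped the hormone classes, with 0 to 36.99 CPM in fibroblast and mural-like and 0 to 22.9 CPM in macrophage-like nuclei. Melanotrope-like nuclei were lowest, at 4.45, 5.55, 6.67 and 8.55 CPM (log2 fold -1.43 ± 0.30, adjusted p = 0.000226), and somatotrope-like nuclei were lower too (-0.87 ± 0.24). The stem-like and pituicyte-like classes, high in Per2, were thus the classes low in Arntl, and the melanotrope-like class, lowest in Per2, was highest in Arntl. The scatter of both genes shows this for the 11 classes.

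**Figure D2:**
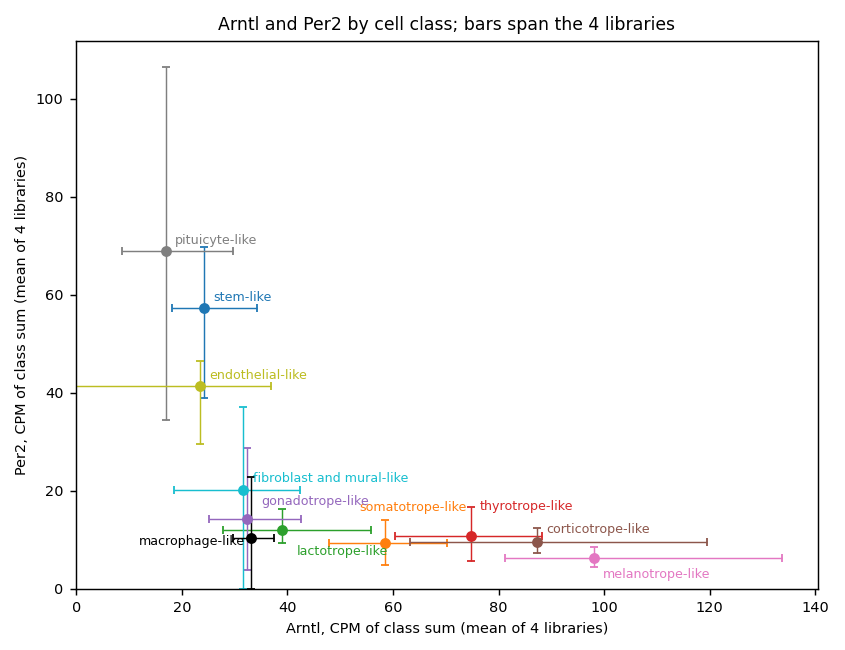
Mean level of Arntl (horizontal axis, CPM of class sum) against Per2 (vertical axis, CPM of class sum) in 11 cell classes, with bars from the lowest to the highest of the 4 libraries. Pituicyte-like, stem-like and endothelial-like nuclei lie high in Per2 and low in Arntl, and melanotrope-like, corticotrope-like, thyrotrope-like and somatotrope-like nuclei lie low in Per2 and high in Arntl; the 11 points share their libraries and no correlation is given.

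Per1, a paralog of Per2, did not follow it. Per1 was highest in corticotrope-like nuclei, at 66.1, 85.9, 42.1 and 25.3 CPM (log2 fold 1.37 ± 0.24, adjusted p = 2.39e-05), where Per2 stood at 7.34, 12.3, 7.58 and 10.5 CPM and did not pass. Lactotrope-like nuclei were lower in Per1, at 16.2, 18.1, 9.76 and 10.9 CPM (log2 fold -0.81 ± 0.22, adjusted p = 0.00300). Fibroblast and mural-like nuclei passed at 0.90 ± 0.34 (adjusted p = 0.0426), a call that no fit with a library left out kept. In the endothelial-like nuclei of the 5-month males Per1 had 0 UMIs, which allows up to 33.4 CPM (3 counts) for counting error alone.

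Per3, whose part in the loop is less settled than that of its paralogs, was also highest in corticotrope-like nuclei, at 319.8, 262, 193 and 192 CPM (log2 fold 0.74 ± 0.14, adjusted p = 6.24e-05). It was higher in stem-like nuclei (0.46 ± 0.14, adjusted p = 0.00809) and lower in macrophage-like nuclei, at 114, 131, 34.6 and 51.3 CPM (-1.12 ± 0.21, adjusted p = 4.50e-05). Endothelial-like (-0.52 ± 0.20) and melanotrope-like nuclei (-0.39 ± 0.15) also passed lower, at adjusted p = 0.0354 and 0.0321, and each lost the call in at least 2 of the 4 fits with a library left out. The 4 libraries of a class differed in Per3 along their labelled ages, as described below.

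The cryptochromes, the partners of the Per proteins, were both higher in corticotrope-like and somatotrope-like nuclei, and Cry1 also in 3 further hormone classes. Cry2 was highest in corticotrope-like nuclei, at 65.01, 109, 105 and 90.6 CPM (log2 fold 1.27 ± 0.15, adjusted p = 9.18e-09), followed by somatotrope-like nuclei (0.70 ± 0.13). Cry1 was higher in thyrotrope-like (0.84 ± 0.22), melanotrope-like (0.71 ± 0.20), corticotrope-like (0.67 ± 0.25), lactotrope-like (0.63 ± 0.17) and somatotrope-like nuclei (0.51 ± 0.18). The remaining hormone class, gonadotrope-like nuclei, was lower in both, with Cry1 at 5.75, 10.8, 9.39 and 6.45 CPM (-1.21 ± 0.27, adjusted p = 0.000315) and Cry2 at 38.1, 43.1, 24.4 and 18.1 CPM (-0.60 ± 0.17, adjusted p = 0.00359). In that class Clock was highest and both cryptochromes were low. Stem-like nuclei were low in Cry1 (-0.86 ± 0.29), and both genes were lower in macrophage-like nuclei, where Cry1 had 5 UMIs in all. Cry2 was also lower in fibroblast and mural-like nuclei (-0.77 ± 0.26, adjusted p = 0.0206).

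The Rev-erb genes, repressors of Arntl, were both highest in stem-like nuclei. Nr1d1 stood there at 69.8, 57.4, 62.5 and 76.03 CPM (log2 fold 1.39 ± 0.15, adjusted p = 3.01e-10), and Nr1d2 at 147, 147, 147 and 177 CPM (0.80 ± 0.10, adjusted p = 1.14e-08). Both were higher in fibroblast and mural-like nuclei (1.02 ± 0.21 and 0.54 ± 0.12), and both were lower in macrophage-like (-1.43 ± 0.37 and -0.89 ± 0.17), somatotrope-like (-0.75 ± 0.15 and -0.32 ± 0.10) and thyrotrope-like nuclei (-0.77 ± 0.19 and -0.31 ± 0.11). Nr1d2 alone passed in endothelial-like nuclei, higher (0.55 ± 0.13), and Nr1d1 alone in lactotrope-like nuclei, lower (-0.35 ± 0.14). The pair went apart in melanotrope-like nuclei, where Nr1d1 was higher (0.53 ± 0.15, adjusted p = 0.00336) and Nr1d2 lower (-0.63 ± 0.11, adjusted p = 8.70e-06). Stem-like nuclei thus combined high Nr1d1, Nr1d2, Per2, Per3 and Dbp with low Arntl, Clock and Cry1, which is 8 of the 10 members past the test, against 37.6% of all genes in that class. Melanotrope-like and somatotrope-like nuclei came close, each with 3 members higher and 4 lower, where 37.6% and 40.1% of all genes passed.

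Dbp, the output factor, was higher in stem-like nuclei, at 90.1, 74.03, 54.8 and 66.7 CPM (1.09 ± 0.18, adjusted p = 4.96e-06), and in gonadotrope-like nuclei, at 98.4, 105, 44.6 and 39.3 CPM (0.83 ± 0.17, adjusted p = 0.000182). It was lower in somatotrope-like (-1.10 ± 0.18), thyrotrope-like (-0.96 ± 0.23), melanotrope-like (-0.88 ± 0.20) and lactotrope-like nuclei (-0.46 ± 0.17). Its highest class mean was that of endothelial-like nuclei, at 80.1 ± 56.1 CPM (SD, n = 4), with the widest spread of any class, from 34.9 to 156.0 CPM (0.86 ± 0.29, adjusted p = 0.0181). The map of class folds gives all 110 pairs.

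**Figure D3:**
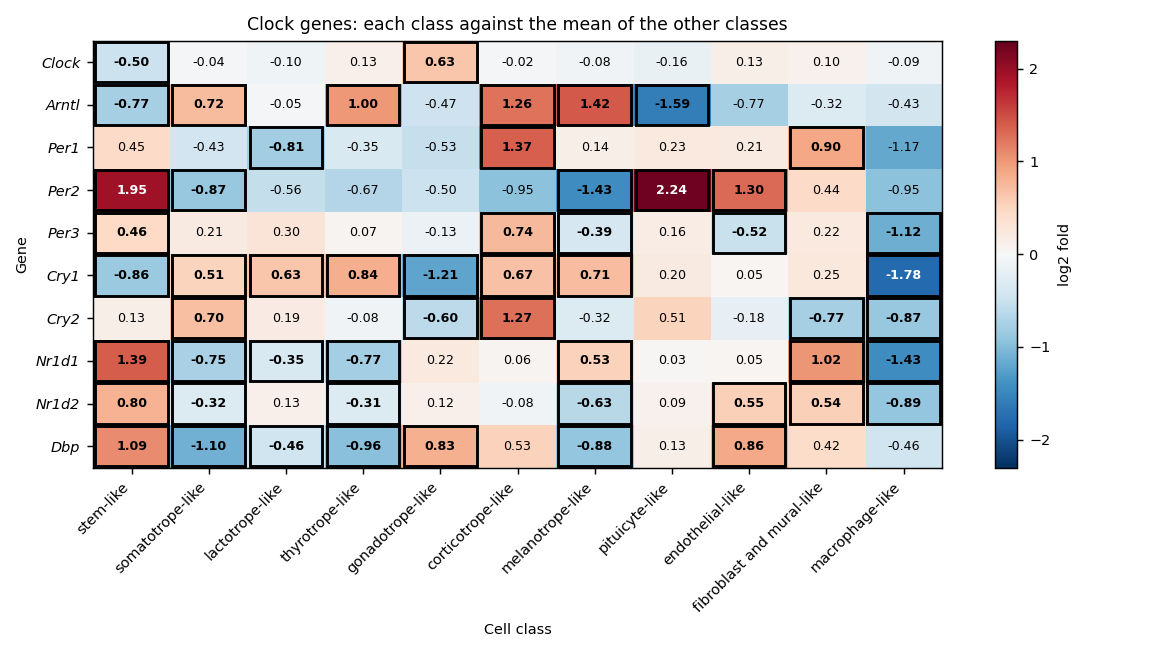
Log2 fold of each class (columns) against the mean of the other classes for the 10 clock genes (rows), from the fit over 4 libraries; red is higher, blue is lower, and boxed bold values passed at an adjusted p under 0.05. The column of stem-like nuclei has 8 boxed values, and the row of Clock has 2.

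Across the labelled ages, members passed only towards lower values in the 22-month libraries. The libraries labelled 22-month were compared with those labelled 5-month within each class by edgeR's quasi-likelihood test, with labelled sex as a term. The fit has 1 residual degree of freedom, so the spread rests mostly on what the fit shares between genes, and the p-values count pools and not mice. Of the 110 pairs, 92 passed the filter on low counts. Among these 13 were lower and 0 higher at an adjusted p under 0.05, where 3.42% of all pairs tested were lower and 4.32% higher. The 13 pairs were Per3 in 5 classes, Dbp in 4, Per1 in 2, and Per2 and Nr1d1 in 1 each. None of the 13 passed in all 4 fits with 1 library left out, 6 passed in none, and DESeq2 called 3. Such a fit sets 1 library against 2, and all 13 folds stayed below 0 in each of them. In these pairs both 22-month libraries lay below both 5-month ones, so this sign was largely given and adds no support.

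Per3 was the member with most calls. In gonadotrope-like nuclei it stood at 236, 228, 102 and 74.8 CPM, a log2 fold of -1.28 ± 0.19 (SE, edgeR adjusted p = 2.78e-06). In lactotrope-like nuclei, the prolactin cells, it stood at 261, 279, 128 and 103 CPM (-1.05 ± 0.14, adjusted p = 0.00165). In somatotrope-like nuclei, the growth hormone cells, the values were 212, 216, 93.7 and 126 CPM (-0.95 ± 0.14, adjusted p = 0.00288). In each of these 3 classes both 5-month libraries held about the same level and both 22-month libraries lay well below it. Thyrotrope-like nuclei held 256, 161, 122 and 99.8 CPM (-0.90 ± 0.17, adjusted p = 0.0132), and stem-like nuclei 265, 213, 131 and 174 CPM (-0.73 ± 0.20, adjusted p = 0.00581). The fold was below 0 in the other 6 classes as well, from -0.36 in endothelial-like to -1.59 in macrophage-like nuclei, without passing. Melanotrope-like nuclei were the hormone class in which the groups overlapped, at 112, 159, 115 and 72.4 CPM. Among the 2948 genes tested in all 11 classes, 0.746% were lower in at least 5 classes and 5.83% had a fold below 0 in all of them.

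Leaving out a library cost Per3 calls. The Per3 folds then ran from -1.46 to -1.08 in gonadotrope-like, -1.20 to -0.89 in lactotrope-like and -1.18 to -0.60 in thyrotrope-like nuclei. With the 5-month males left out none of the 5 passed, and their adjusted p values ran from 0.0651 in lactotrope-like to 0.640 in thyrotrope-like nuclei. With the 5-month females left out none passed either (0.0822 to 0.191). Without the 22-month males the gonadotrope-like, lactotrope-like and thyrotrope-like calls passed, and without the 22-month females the gonadotrope-like (0.00144) and lactotrope-like ones (0.0405). DESeq2 called Per3 in gonadotrope-like (adjusted p = 0.00677), lactotrope-like (9.71e-06) and somatotrope-like nuclei (0.000225). Between the 2 libraries whose sex-linked transcripts match their labels, the 22-month females and the 5-month males, the log2 ratio of Per3 was -1.66 (95% counting interval -1.97 to -1.35) in gonadotrope-like and -1.34 (95% counting interval -1.43 to -1.25) in lactotrope-like nuclei. In stem-like nuclei it was -0.61 (95% counting interval -0.91 to -0.31). These 2 libraries, 1 pool each, differ in sex-chromosome content as well as labelled age. The sign of these ratios was given, since the labelled ages did not overlap in these classes.

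The counts of Per3 also have a neighbour to be read with. Per3 (ENSMUSG00000028957, mm10 chromosome 4, 151003652 to 151044665, minus strand) lies, in GENCODE M21, wholly inside an intron of 1 of the 13 annotated transcripts of Camta1, a transcription factor gene on the same strand, and no Camta1 exon overlaps it. The sources used here do not give how reads in such a stretch were assigned. Camta1 was higher in the 22-month libraries in 4 of the 5 classes where Per3 was lower. In gonadotrope-like nuclei Camta1 stood at 406, 381, 944 and 821 CPM (log2 fold 1.28 ± 0.20, adjusted p = 9.26e-06). In lactotrope-like nuclei it stood at 226, 228, 459.7 and 679 CPM (1.48 ± 0.16, adjusted p = 0.000616). It rose in somatotrope-like (0.85 ± 0.12, adjusted p = 0.00329) and thyrotrope-like nuclei (1.61 ± 0.20, adjusted p = 0.000567), and in stem-like nuclei its fold was 0.63 ± 0.22 (adjusted p = 0.0555). Neither gene passed in the other 6 classes. The part of this overlap in the Per3 difference was not tested, and the Per3 values are uncertain to that extent. Other members overlap genes on the opposite strand: Dbp overlaps Sphk2 over 737 bases, Nr1d1 overlaps Thra, a thyroid hormone receptor gene, over 1075 bases, and Cry2 overlaps the non-coding gene D930015M05Rik over 23417 bases. None of these 3 partners passed by labelled age in any class where it was tested.

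**Figure D4:**
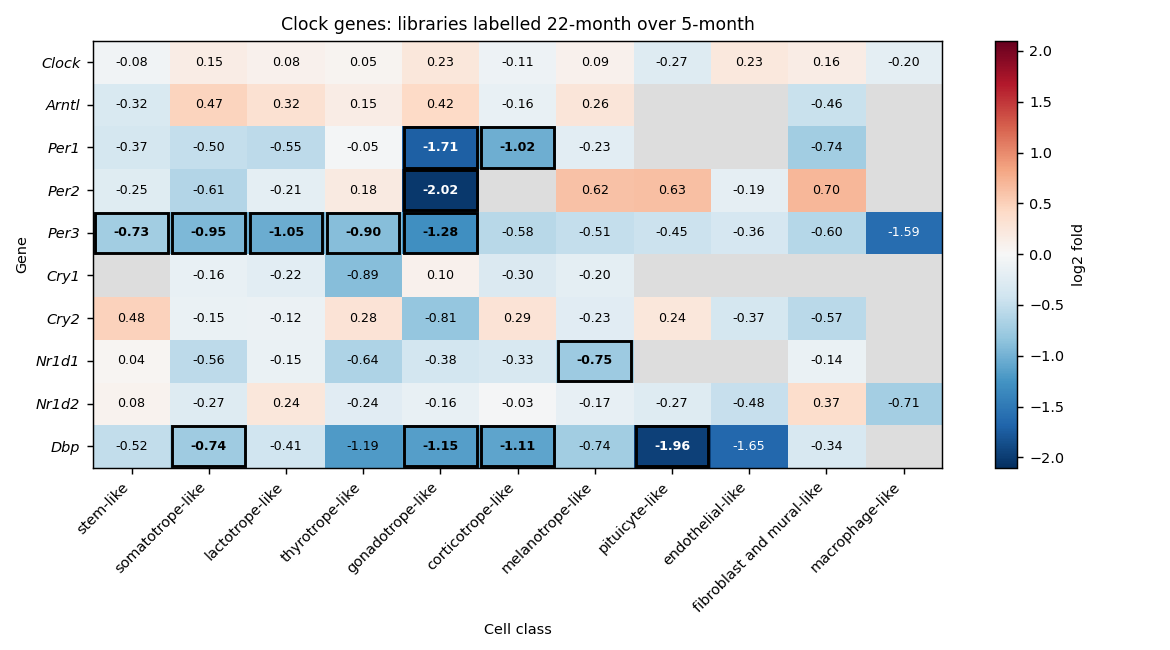
Log2 fold of the libraries labelled 22-month over those labelled 5-month for the 10 clock genes (rows) in 11 classes (columns); blue is lower in the 22-month libraries, grey pairs were not tested, and boxed bold values passed at an adjusted p under 0.05. All 13 boxed values are below 0, and the rows of Per3, Dbp and Per1 are below 0 in every class tested.

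The class names join clusters that are not the same in both ages. Most lactotrope-like nuclei of the 5-month libraries lay in clusters 5 and 6 and those of the 22-month libraries in clusters 16, 17 and 18, and gonadotrope-like nuclei lay in cluster 12 or 19 in the same way. Somatotrope-like nuclei offer a comparison within clusters, since 3 of their clusters held every library. Per3 stood at 225, 226, 87.3 and 145 CPM in cluster 0, at 209, 198, 131 and 140.5 CPM in cluster 3 and at 239.8, 215, 88.1 and 110.4 CPM in cluster 4. Both 22-month libraries lay below both 5-month libraries in each of the 3 clusters. These clusters have no separate replicates, so the values carry no test.

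**Figure D5:**
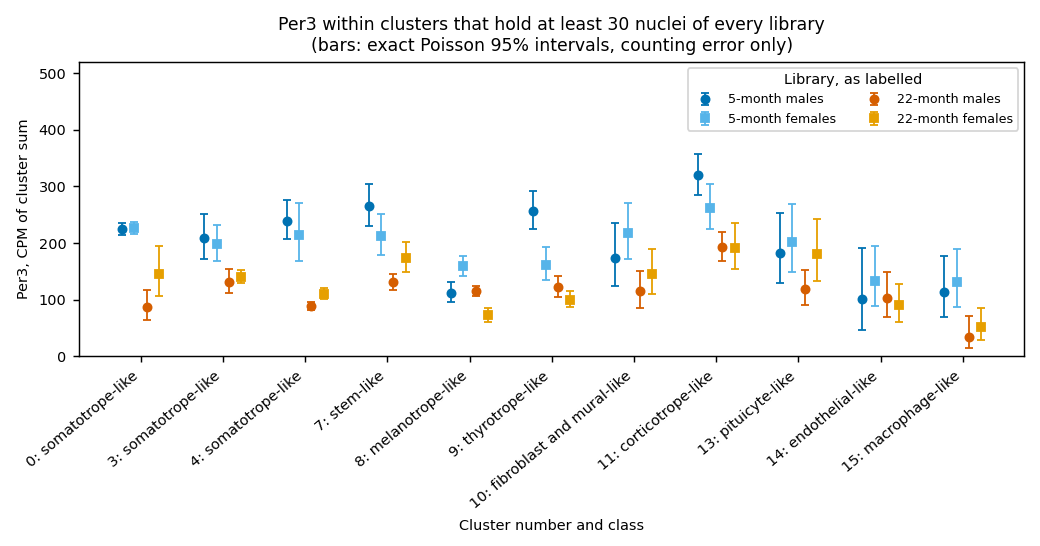
Per3 level (CPM of the cluster sum, linear axis from 0) in the 11 clusters that hold at least 30 nuclei of every library, with 1 point per library and exact Poisson 95% intervals for counting error only. The 22-month points lie below both 5-month points in the somatotrope-like clusters 0, 3 and 4, and in the melanotrope-like cluster they do not.

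Dbp was lower in 4 classes and had a fold below 0 in all 10 classes tested, which share the same 4 libraries. The 4 were gonadotrope-like, corticotrope-like, somatotrope-like and pituicyte-like nuclei, where 6.18%, 0.958%, 3% and 1.03% of all genes tested were lower. The share of all genes with a fold below 0 in the same 10 classes is not given. In gonadotrope-like nuclei it stood at 98.4, 105, 44.6 and 39.3 CPM (-1.15 ± 0.22, adjusted p = 0.000123), and in corticotrope-like nuclei at 80.7, 69.03, 25.3 and 50.6 CPM (-1.11 ± 0.29, adjusted p = 0.00890). In somatotrope-like nuclei it stood at 23.6, 20.2, 15.5 and 10.4 CPM (-0.74 ± 0.19, adjusted p = 0.0390). Within the 3 somatotrope-like clusters that hold every library, Dbp stood at 25.9, 20.4, 17.5 and 15.8 CPM in cluster 0, at 10.8, 11.6, 20.5 and 12.1 CPM in cluster 3 and at 17.98, 5.89, 14.4 and 8.26 CPM in cluster 4. Both 22-month libraries lay below both 5-month ones in cluster 0, not in cluster 3, where both lay above, and not in cluster 4, where they overlapped. Of the somatotrope-like nuclei, 2180 and 1803 of the 5-month libraries lay in cluster 0, against 152 and 87 of the 22-month libraries. At the level of the class, all 4 classes, pituicyte-like nuclei included, had both 22-month libraries below both 5-month ones. Of all genes tested, 34.2% did so in gonadotrope-like, 22.1% in corticotrope-like, 29.6% in somatotrope-like and 16.9% in pituicyte-like nuclei. The pituicyte-like values were 109, 42.98, 15.8 and 27.6 CPM (-1.96 ± 0.54, adjusted p = 0.0190), from 47 UMIs in all, and without the 5-month males the adjusted p was 0.988. The gonadotrope-like call passed without either 22-month library (0.00147 without the males, 0.00324 without the females) and not without either 5-month library (0.181 and 0.217). The corticotrope-like and somatotrope-like calls passed in no fit with a library left out. DESeq2 called Dbp in none of these classes, and gave no adjusted p for pituicyte-like nuclei. Between the 2 libraries that match their sex labels, the log2 ratio of Dbp was -1.32 (95% counting interval -1.78 to -0.88) in gonadotrope-like nuclei. In somatotrope-like nuclei it was -1.18 (95% counting interval -1.52 to -0.85). These 2 libraries differ in sex-chromosome content as well as labelled age.

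Groups that do not overlap were frequent for Per3 and Dbp. Both 22-month libraries lay below both 5-month libraries for Per3 in 9 of 11 classes and for Dbp in 9 of 10. Over the 92 pairs of members tested this held in 39, and the opposite in 6. Among all pairs of a gene and a class, 27.2% were lower in this way and 20.8% higher. Per3 and Dbp give 18 of the 39 pairs.

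Per1, like Per3 and Dbp, had a fold below 0 in every class tested, 8 in all, from -1.71 to -0.05. The share of all genes that did so in the same classes is not given. Per1 and Per2 were lower in gonadotrope-like nuclei. Per1 stood there at 40.2, 18.7, 7.51 and 9.03 CPM (-1.71 ± 0.39, adjusted p = 0.00167) and Per2 at 17.95, 28.7, 6.11 and 3.87 CPM (-2.02 ± 0.44, adjusted p = 0.000973). Per1 was lower in corticotrope-like nuclei too, at 66.1, 85.9, 42.1 and 25.3 CPM (-1.02 ± 0.29, adjusted p = 0.0212). With Per3 and Dbp, 4 of the 10 members were lower in gonadotrope-like nuclei, where 6.18% of all genes tested were. Both gonadotrope-like calls passed without either 22-month library and not without either 5-month library: without the 5-month males the adjusted p was 0.457 for Per1 and 0.163 for Per2. The corticotrope-like call of Per1 passed in no fit with a library left out.

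Genes of acute stimulation stood apart in the library of 5-month males in some classes, and Per1 and Per2 belong to the genes that such stimuli induce. The 10 immediate-early genes listed (among them Fos, Egr1 and Nr4a1) summed to 3594, 185, 197 and 146 CPM in gonadotrope-like nuclei and to 2573, 409.6, 256 and 169 CPM in corticotrope-like nuclei. In lactotrope-like nuclei the sum was 170.4, 125, 137 and 148 CPM and in somatotrope-like nuclei 126, 104, 83.8 and 93.4 CPM, with little between the libraries. Per1 was highest in this library among gonadotrope-like nuclei, but highest in the 5-month females among corticotrope-like nuclei. Per2 was highest in the 5-month females among gonadotrope-like nuclei. Among stem-like, fibroblast and mural-like and melanotrope-like nuclei the sum was 778, 2262.5 and 4063 CPM in this library. The other libraries held at most 141, 214 and 375 CPM. In these classes Per1 was highest in the 5-month males, at 44.4, 50.8 and 36.9 CPM, and Per2 in the 22-month females. In thyrotrope-like nuclei the sum was 408, 168, 93.2 and 170 CPM, and Per1 was lowest in the 5-month males, at 9.97 CPM. Over all classes, 25 of the 55 tested pairs of immediate-early genes were lower in the 22-month libraries and 2 were higher, against 3.42% and 4.32% of all pairs. By labelled sex, 18 of the 55 were lower in the libraries labelled females and 0 higher, against 0.412% and 0.833% of all pairs. The 5-month males belong, in both comparisons, to the group that most of these calls placed higher. Of the 8 glucocorticoid-responsive genes listed (among them Fkbp5, Tsc22d3 and Sgk1), 16 of 71 tested pairs were lower by labelled age and 3 higher, against 3.42% and 4.32% of all pairs. Their sum stood at 494, 476, 267 and 339 CPM in gonadotrope-like and at 303, 364, 116 and 129 CPM in lactotrope-like nuclei. In corticotrope-like nuclei both 22-month libraries lay above both 5-month ones, at 612, 750.1, 809.8 and 763 CPM. The part of either list in the Per1 and Per2 differences was not tested.

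Nr1d1 was lower in melanotrope-like nuclei, at 54.01, 49.95, 28.1 and 33.2 CPM (-0.75 ± 0.20, adjusted p = 0.0396), and this call passed in no fit with a library left out. The immediate-early sum of that class was 4063, 375, 219 and 259 CPM, and the part of these genes in the Nr1d1 difference was not tested. The Nr1d1 fold ran over -0.88 to -0.59 in the fits with a library left out. Nr1d2 passed in no class by labelled age, with folds from -0.71 to 0.37 in 11 classes.

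The activators did not pass in any class. Arntl came nearest in somatotrope-like nuclei, at 51.4, 47.8, 64.4 and 70.2 CPM with a log2 fold of 0.47 ± 0.13 (adjusted p = 0.0561), in the direction opposite to Per3 and Dbp. Its folds over the 8 classes tested ran from -0.46 to 0.47. Clock had the narrowest folds of the members, from -0.27 in pituicyte-like nuclei to 0.23 in gonadotrope-like and endothelial-like nuclei. In lactotrope-like nuclei, where 22.1% of all genes passed, Clock stood at 127, 129, 111 and 128 CPM. Neither cryptochrome passed: Cry2 came nearest in gonadotrope-like nuclei, at 38.1, 43.1, 24.4 and 18.1 CPM (-0.81 ± 0.30, adjusted p = 0.0616), and Cry1 in thyrotrope-like nuclei, at 44.3, 30.2, 23.7 and 16.7 CPM (-0.89 ± 0.31, adjusted p = 0.163).

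Whether the labelled-age fold itself differed between classes was tested in 1 fit over all classes, again with library as a block. Of the 110 pairs 1 passed, Per2 in gonadotrope-like nuclei, whose age fold lay -2.05 ± 0.49 (log2, SE) from the mean of the other classes (edgeR adjusted p = 0.0244). Over all genes 0.467% of pairs passed, and 1.15% in gonadotrope-like nuclei. The call was lost without the 5-month males (0.0609), without the 5-month females (0.171) and without the 22-month females (adjusted p = 1). Per3 passed in no class here, with its nearest value again in gonadotrope-like nuclei (-0.55 ± 0.24, adjusted p = 0.411). The lower Per3 of the 22-month libraries was therefore not shown to differ between classes.

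By labelled sex, 0 of the 92 pairs passed in edgeR, where 1.25% of all pairs did, and 12 had an unadjusted p under 0.05. DESeq2 called 0 as well. The nearest was Per2 in somatotrope-like nuclei, at 8.42, 13.9, 4.75 and 9.91 CPM, with a log2 fold of 0.83 ± 0.23 for the libraries labelled females over those labelled males (adjusted p = 0.136). Each labelled sex joins 1 library with Y-linked transcripts and 1 with Xist, so this contrast is not one of sex-chromosome content.

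Beyond the 10 members, 21 other genes of the clock and its regulation were followed, such as the receptors Rora and Rorb, which activate Arntl, the D-box factors Tef and Hlf, and the E-box repressors Bhlhe40 and Bhlhe41. Of their 220 pairs tested, 64 were higher and 44 lower in a class than in the others, where 20.3% and 13.1% of all pairs were. Rorb passed in all 11 classes, higher in 6 and lower in 5. It was higher in thyrotrope-like (3.47 ± 0.18), corticotrope-like (3.32 ± 0.19) and melanotrope-like nuclei (2.76 ± 0.19), the classes highest in Arntl, and lower in stem-like (-3.59 ± 0.35) and pituicyte-like nuclei (-2.97 ± 0.39), the classes lowest or near lowest in it. Rorb was also higher in gonadotrope-like nuclei (2.59 ± 0.19), where Arntl did not pass. The Rorb folds of the remaining classes are not listed. Among them are somatotrope-like nuclei, where Arntl was higher, and endothelial-like nuclei, near its lowest. Whether Rorb runs along with Arntl over the classes is thus not shown, and a link between Rorb and Arntl was not tested. Bhlhe41 passed in 8 classes and was highest by fold in stem-like nuclei (1.94 ± 0.14). Bhlhe40, Rora, Hlf and Tef passed in 7 classes each. Hlf was higher in pituicyte-like (2.53 ± 0.17) and lower in gonadotrope-like nuclei (-2.75 ± 0.25), Tef was higher in stem-like (1.36 ± 0.13) and lower in melanotrope-like nuclei (-0.93 ± 0.15), and Rora was higher in fibroblast and mural-like nuclei (1.29 ± 0.14). Bhlhe40 was higher in endothelial-like (1.47 ± 0.30) and lower in lactotrope-like nuclei (-1.31 ± 0.19).

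By labelled age, 6 of 164 pairs of these 21 genes were lower and 3 higher, which is near or below the 3.42% and 4.32% of all pairs. Ciart, an E-box repressor of Clock and Arntl, was the one that passed in more than 1 class. Its counts allowed a test in 2 classes only. Ciart stood at 3.75, 4.79, 0.552 and 1.94 CPM in somatotrope-like nuclei (-1.82 ± 0.45, edgeR adjusted p = 0.0381). In the 22-month males of that class 1 UMI was 0.110 CPM, so the value rests on few counts. In lactotrope-like nuclei Ciart stood at 4.09, 6.40, 1.94 and 1.93 CPM (-1.23 ± 0.37, edgeR adjusted p = 0.0472). By labelled sex 0 of the 164 passed in edgeR.

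Likeness to Per3 was ranked over 44 points, 11 classes in 4 libraries, with each gene's log2(CPM + 1) centred on its class mean, among 8264 genes of at least 20 CPM on average. The genes most like Per3 were Snhg20 (Pearson r 0.818), Srek1 (0.792), Gm19522 (0.787), Dynlt1c (0.782) and Pard3bos1 (0.755). Of the other members Dbp came nearest to Per3 (0.670), followed by Nr1d2 (0.428) and Per1 (0.408), and Arntl stood at -0.14. The genes most like Arntl were Slc45a4 (0.867), Zfp318 (0.804), Wwc1 (0.800), Glce (0.789) and Reck (0.786). Among members Clock was nearest to Arntl (0.365) and Nr1d1 farthest (-0.39). These values describe 44 points that come from 4 libraries and share their depth, and no p is given for them.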

How the data were processed

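The deposited files hold, per the file headers, counts of UMIs per gene and barcode that the authors made with Cell Ranger 7.0.1, on build mm10 per the submitters' processing notes. The sources used here do not give whether intronic reads were counted, nor how reads shared by overlapping genes were assigned. Barcodes with under 500 genes (288 to 1411 a library) or over 5% mitochondrial counts (56 to 118) were removed. Scrublet was then run per library. Its automatic thresholds were 0.129 to 0.561, so 1 threshold, their median of 0.136, was set for every library once they had been seen, and it marked 10.7% to 13.1% of barcodes as doublets, which were removed.

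Nuclei were clustered together in scanpy 1.11.5 (3000 variable genes, 30 principal components, 15 neighbours, Leiden resolution 1), with no correction between libraries. The 10 members, 21 other clock genes, hormone genes, sex-linked check genes, glucocorticoid-responsive and immediate-early genes and mitochondrial genes were kept out of the variable genes. Clusters were named from marker lists by the class with the highest mean log fold of its markers. Some markers went against their class: Gfra2 stood at 0.401 CPM in stem-like, Agtr1b at 0.0489 CPM in lactotrope-like and Sox14 at 0 CPM in thyrotrope-like nuclei, and Eya4 was at 3.39 CPM in somatotrope-like against 647 CPM in stem-like nuclei.

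Counts were summed by class and library for classes of at least 30 nuclei in every library, and tested in edgeR 4.0.16 (TMM factors, edgeR's filter on low counts, quasi-likelihood test, Benjamini-Hochberg over all genes kept). The SE of a log2 fold is its size over the square root of the F statistic. Prior degrees of freedom of the labelled-age fits ran from 6.87 in macrophage-like nuclei to no finite limit in corticotrope-like, pituicyte-like and stem-like nuclei. The steps were tested on simulated data. A simulated 2-fold labelled-age change was recovered in 13 of 100 genes in endothelial-like to 75 of 100 in lactotrope-like nuclei. For a 4-fold change this was 76 of 100 in fibroblast and mural-like to 100 of 100 in stem-like nuclei. The test of the labelled-age fold between classes recovered 13 of 100 at 2-fold in stem-like nuclei. A pair that did not pass is thus not shown to be unchanged. DESeq2 1.42.0, other filters, scalings and clusterings, and fits without each library were alternatives. Fits without a library drop labelled sex as a term, leave 1 labelled age with a single library, and assume that it varies like the others.

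All 10 members were followed in every class. Of the other clock genes, those that passed in at least 2 classes are named, or, where more than 6 did, the 6 that passed in most classes, with ties. The values of 1 gene that this rule names are not reported here. The members, the lists and the markers were chosen with earlier results of these data known. Intervals cover counting error only.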

Additional observations from a re-analysis of the deposited data

Results flagged for a closer look

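Per2 had a labelled-age fold in gonadotrope-like nuclei that lay -2.05 (log2) from the mean fold of the other classes, by a test of the difference itself (edgeR adjusted p = 0.0244), the 1 pair of 110 to pass, where 0.467% of all pairs and 1.15% of those in gonadotrope-like nuclei passed. It was lost without the 5-month males (0.0609), the 5-month females (0.171) or the 22-month females (adjusted p = 1), and with doublets kept. Arntl in lactotrope-like nuclei moved in opposite directions in the labelled sexes: the log2 ratio of the 22-month to the 5-month library was -0.342 in the libraries labelled males and 0.594 in those labelled females, and the difference between them was not tested. The 22-month libraries lay in different lactotrope-like clusters: 4041 nuclei of the males in cluster 16 and 3157 of the females in cluster 17. Arntl stood at 20.1 CPM in the males and 38.1 CPM in the females within cluster 16, and at 64.6 and 55.1 CPM within cluster 17, so their order differed between the clusters.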

How the results depend on the processing

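By labelled age, 13 of the members' pairs passed. DESeq2 gave 3, the fit without labelled sex as a term gave 3, and the fits without 1 library gave 0 to 8, with 0 without the 5-month males, 1 without the 5-month females, 8 without the 22-month males (7 lower and 1 higher) and 7 without the 22-month females. These last fits also lack the term for labelled sex. Without the filter 15 passed, with plain totals 14, with doublets kept or with no mitochondrial limit 12, and at Leiden resolution 2 again 13. No call turned its direction in any of these settings. For the fits without 1 library this was largely given, since the labelled ages did not overlap in the pairs called. Plain totals moved the median labelled-age log2 fold of all genes to between -0.21 (lactotrope-like) and 0.06 (pituicyte-like), from -0.02 to 0.00 with TMM; Per3 stayed below 0 in 11 of 11 classes and Dbp in 10 of 10 under TMM, plain totals and DESeq2, and Per1 in 8 of 8, 8 of 8 and 7 of 8. By labelled sex, 0 passed, and 2 without the filter, both higher in the libraries labelled females. By class, 55 passed, and 44 to 58 under the alternatives, among them 47 in the fit with no replicate block, which leaves out library as a term. For the class difference in the labelled-age fold, 1 passed, and 0 with doublets kept, while the fits without 1 library gave 0 to 1. No paired analysis was possible because each labelled group is 1 library and the labels give no replicate numbers. Depth limits the small classes: in endothelial-like nuclei of the 5-month males a count of 0 allows 33.4 CPM (3 counts), and 18 of 110 pairs were too low to test by labelled age.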
